A study of Mus musculus with 9 samples.

Results

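The genes described here are the ABC, SLCO and SLC22 transporters of whole mouse liver, chosen by name and not by any measured value: the protein-coding genes whose symbols begin with *Abca* to *Abcg*, *Slco* or *Slc22a* followed by a digit, without *Abcb11*. They number 88 of the 43346 genes in the deposited table, of which 22032 are protein-coding, and comprise 49 ABC, 25 SLC22 and 14 SLCO genes. Bulk RNA-Seq, which counts sequenced fragments of polyadenylated RNA on each gene, was run on 9 libraries in 3 groups of 3. All samples came from C57/BL6 male mice aged 12 weeks that underwent 70% partial hepatectomy, and every mouse received i.p. injections of either normal saline (vehicle) or NSC-87877 (NSC, an inhibitor of the phosphatase SHP2, at 7.5 mg/kg per dose, 2 doses a day). Per the labels, treatment began 12 h before surgery, whereas the methods of the study place the first dose 1 day before it. The baseline group held vehicle resection specimens collected during surgery (0 h), and the other groups held liver remnants collected 40 h later from vehicle- and from NSC-treated mice. No baseline specimen under NSC was among the 9 libraries, and both remnant groups were set against the 3 vehicle specimens. The comparison of NSC-treated remnants with baseline therefore holds treatment, surgery and time together.

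ABC transporters use ATP to move bile components, drug conjugates, lipids and metals across membranes, and a few subfamilies (ABCE and ABCF) span no membrane and act in translation. SLCO and SLC22 proteins carry organic anions and cations, in the liver mainly from the sinusoidal blood into the hepatocyte. Hepatocytes take up solutes across the basolateral membrane, excrete them into bile across the canalicular membrane, and can return conjugates to blood through other basolateral ABC pumps.

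After hepatectomy, more of these genes fell than rose in both 40 h groups. The efflux pump genes *Abcc2*, *Abcc3*, *Abcc4*, *Abcc6*, *Abcg5* and *Abcg8* were lower at 40 h with vehicle and with NSC, *Slc22a7* was higher in both, and no transporter gene passed the adjusted test between NSC- and vehicle-treated remnants. Of the 88 genes, 62 had enough counts to be tested. Among these, edgeR's quasi-likelihood test (Benjamini-Hochberg adjusted p under 0.05 over 15024 genes) called 6 higher and 18 lower in vehicle-treated remnants, or 9.68% and 29.0%, where 12.7% of all tested genes were called higher and 11.0% lower. The vehicle and baseline libraries did not overlap for 8 genes that were higher and 22 that were lower, where such separation held for 24.2% and 22.0% of all tested genes. The median log2 fold change of the 62 genes was -0.29 and that of all tested genes 0.01. In NSC-treated remnants 8 were higher and 22 lower than baseline, or 12.9% and 35.5%, where 18.2% of all tested genes were called higher and 16.5% lower, and the median of the 62 genes was -0.47 against 0.01 for all. The NSC and baseline libraries did not overlap for 9 genes that were higher and 27 that were lower, against 24.0% and 23.1% of all tested genes. With libraries scaled by their total counts alone, the counts were 10 higher and 16 lower, and the median of all genes in this comparison moved to 0.15. Higher calls were then 38.5% of the calls in place of 26.7%. The shares of all tested genes called under that scaling are not given here. Because the 2 comparisons with baseline share their baseline libraries, their counts are given side by side only.

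By name, 5 genes were called higher in both 40 h groups (*Abcb1b*, *Abce1*, *Abcg1*, *Slc22a7* and *Slco3a1*) and 14 were called lower in both, among them *Abca8a*, *Abcb10*, *Abcc10*, *Abcc2*, *Abcc3*, *Abcc4*, *Abcc6*, *Abcd4*, *Abcg5*, *Abcg8*, *Slc22a15*, *Slc22a4* and *Slco2b1*. With vehicle but not NSC, *Abcc9* was called higher and *Abca6*, *Abcd3*, *Slc22a29* and *Slc22a30* lower. With NSC but not vehicle, 3 were called higher, *Abcg2* and *Abcg3* among them, and 8 lower, among them *Abca2*, *Abca7*, *Abcb6*, *Abcf1*, *Abcf3*, *Slco2a1* and *Slco4a1*. Among these, the vehicle calls for *Abca6*, *Slc22a29* and *Slc22a30* and the NSC calls for *Abca2*, *Abcb6*, *Slco2a1* and *Slco4a1* were lost on leaving out 1 library or another. No gene was called in opposite directions, and 27 were called in neither comparison. A split in calls does not by itself show a difference between the 40 h groups. The direct comparison by edgeR called 0 genes, which does not show equal levels. With correction for GC content, *Abca6*, *Abcd3*, *Slc22a29* and *Slc22a30* were called lower with NSC as well. That setting lost the NSC calls for *Abca2*, *Abcb6*, *Abcf1*, *Abcf3*, *Abcg2*, *Abcg3* and *Slco2a1* and the vehicle call for *Abcc9*. It kept the NSC calls for *Abca7* and *Slco4a1*, so the splits depend on the processing.

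Library totals were 31187349 to 33943842 counts at baseline, 27956396 to 42887589 in vehicle-treated and 23997363 to 30201051 in NSC-treated remnants, and levels below are TMM-normalized CPM (counts scaled to a common library size), in which 3 counts correspond to 0.0751 to 0.117 CPM depending on the library. The labels number the replicates without tying a specimen to a mouse, so p-values measure only the spread between these samples. Hepatocyte markers such as albumin summed to 98380 to 139400 CPM in the 9 libraries, as the liver label requires. Within that list *Fgb* was called higher and *Tat* lower in both 40 h groups. Some markers of other cells differed between groups, with members of a list going different ways. The 6 analysed genes of a Kupffer cell and macrophage list summed to 144 to 208 CPM at baseline, 141 to 259 with vehicle and 278 to 447 with NSC. Of the 6, 2 and 4 were called higher than baseline with vehicle and NSC. *Clec4f* and *Csf1r* of that list were lower with vehicle (log2 fold change -0.54 and -0.39), neither called. The stellate cell and fibroblast list summed to 193 to 230, 369 to 503 and 238 to 434 CPM in the same order. Of its 6 genes, 3 and 2 were called higher with vehicle and NSC, and *Lrat* and *Reln* were called in neither. Of 5 cholangiocyte genes, 4 and 3 were called higher. Of 6 sinusoidal endothelium genes, 2 were called lower with vehicle and 0 with NSC. The 3 proliferation genes summed to at most 2.37 CPM at baseline and 177 to 229 CPM with vehicle. NSC replicate 1 stood apart from the other NSC libraries, with 110.8 CPM of proliferation markers against 527 and 375, and the highest macrophage sum. The part of cell composition in the values below was not tested, and in bulk tissue fewer cells of a type and less RNA per cell cannot be told apart.

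Per unit of gene length, *Slco1b2* and *Abcd3* were among the most abundant transporter transcripts at baseline, at 152 ± 21.9 and 141 ± 16.4 FPKM (SD, n = 3). The libraries of these genes overlapped. *Abcc2* and *Abcc3* followed at 79.2 ± 8.33 and 60.8 ± 7.81 FPKM. The 5 genes with the highest mean FPKM at baseline held 49.0% to 51.1% of the summed FPKM of all 88 at baseline. That sum was 1200 to 1306 FPKM at baseline, 829 to 1033 in vehicle-treated and 950.1 to 1156 in NSC-treated remnants, so both 40 h groups lay below baseline and overlapped each other. Some efflux pump genes moved down the order of mean FPKM. *Abcc3* went from rank 5 at baseline to 8 with vehicle and 11 with NSC. In the same order *Abcc6* went from 9 to 13 and 19, and *Abcg8* from 14 to 26 and 29. Other pump genes did not: *Abcc2* was at ranks 4, 5 and 4, and *Abcg2* at 22, 24 and 12.

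**Figure D1:**
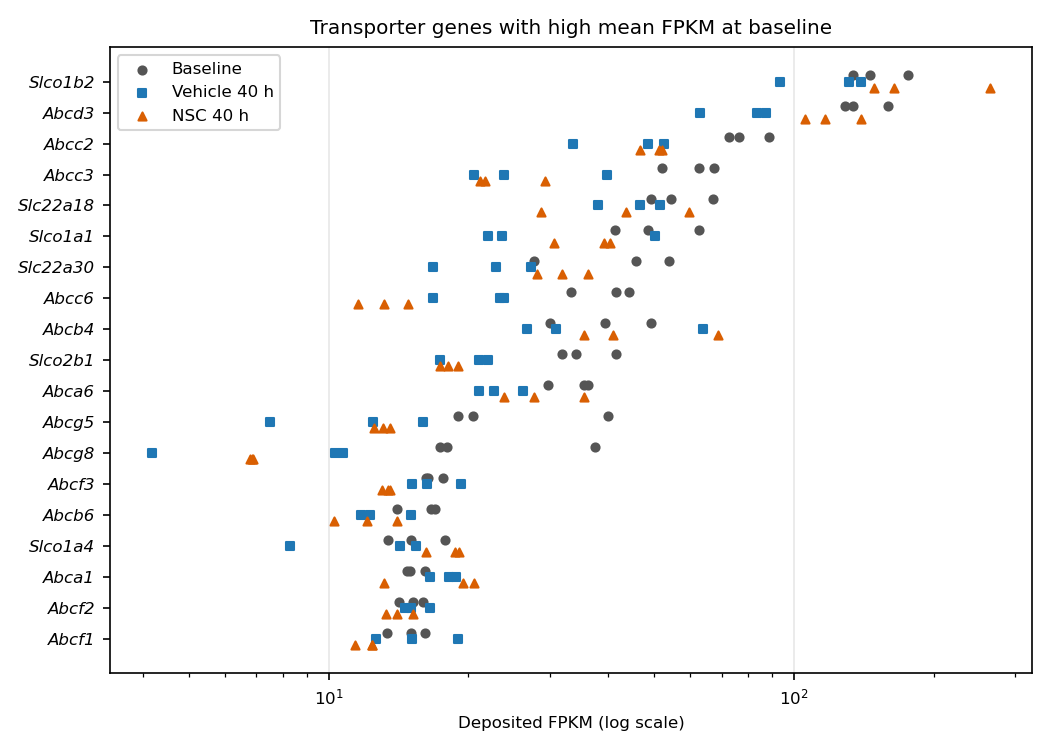
FPKM on a log axis of 19 transporter genes among the 20 with the highest mean at baseline, with 1 point per library. *Slco1b2* and *Abcd3* head the plotted order, while the points of *Abcc3*, *Abcc6* and *Abcg8* at 40 h lie to the left of baseline.

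At the other end, 26 genes were too low to test: 6 ABCA, 1 ABCB, 1 ABCC, 1 ABCG, 10 SLC22 and 7 SLCO genes. Of these, 6 had 0 counts in every library and 19 had at most 3 counts in any library, which leaves a level of up to 3 counts per library undetected. The highest value of an untested gene was 0.495 CPM, for *Slco1a6* with 15 counts. The untested group includes the renal transporters *Slc22a6* and *Slc22a8*, both at 0 in all libraries, and *Abcb5* and *Abcc8*, each with at most 1 count.

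The 300-base windows around the RefSeq start sites of 5 pump genes are shown because *Abcg5* and *Abcg8*, which encode the partner subunits of the canalicular sterol pump, start within a short distance of each other on opposite strands and were called lower in both comparisons, and because *Abcc2*, *Abcc4* and *Abcg2* hold letters of motifs that nuclear receptors or stress and circadian factors are known to bind. Each window runs from 250 bases before to 50 bases after the start (RefSeq, GRCm38.p6), and capitals mark the motif matches. *Abcg8* has 2 such windows, and the window nearest the *Abcg5* start is shown. For the other genes the window nearest the deposited gene start is shown.
Abcg5, chr17:84682962-84683261, minus strand: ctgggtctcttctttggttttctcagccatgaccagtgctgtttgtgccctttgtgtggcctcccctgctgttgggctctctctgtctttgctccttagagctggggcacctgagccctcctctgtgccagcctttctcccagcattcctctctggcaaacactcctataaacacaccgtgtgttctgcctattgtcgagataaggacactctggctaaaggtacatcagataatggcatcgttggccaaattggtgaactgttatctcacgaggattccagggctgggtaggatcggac
Abcg8, chr17:84682871-84683170, plus strand: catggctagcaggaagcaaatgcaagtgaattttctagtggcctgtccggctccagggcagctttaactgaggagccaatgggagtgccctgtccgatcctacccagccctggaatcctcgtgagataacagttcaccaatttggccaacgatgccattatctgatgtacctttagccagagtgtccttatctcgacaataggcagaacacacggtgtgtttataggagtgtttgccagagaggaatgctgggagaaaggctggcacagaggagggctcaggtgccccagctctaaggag
Abcc2, chr19:43782058-43782357, plus strand: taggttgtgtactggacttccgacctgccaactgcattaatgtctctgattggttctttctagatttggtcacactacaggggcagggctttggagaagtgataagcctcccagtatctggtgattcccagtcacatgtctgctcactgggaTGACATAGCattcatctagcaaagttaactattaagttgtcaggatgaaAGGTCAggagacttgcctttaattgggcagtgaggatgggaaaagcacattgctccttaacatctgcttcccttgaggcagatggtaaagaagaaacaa
Abcc4, chr14:118706170-118706469, minus strand: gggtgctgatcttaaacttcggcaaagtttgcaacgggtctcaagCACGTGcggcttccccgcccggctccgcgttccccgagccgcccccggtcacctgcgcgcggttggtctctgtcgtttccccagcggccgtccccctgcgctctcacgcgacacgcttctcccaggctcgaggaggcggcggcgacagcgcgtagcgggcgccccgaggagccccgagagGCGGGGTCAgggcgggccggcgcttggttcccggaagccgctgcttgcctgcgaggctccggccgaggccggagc
Abcg2, chr6:58584283-58584582, plus strand: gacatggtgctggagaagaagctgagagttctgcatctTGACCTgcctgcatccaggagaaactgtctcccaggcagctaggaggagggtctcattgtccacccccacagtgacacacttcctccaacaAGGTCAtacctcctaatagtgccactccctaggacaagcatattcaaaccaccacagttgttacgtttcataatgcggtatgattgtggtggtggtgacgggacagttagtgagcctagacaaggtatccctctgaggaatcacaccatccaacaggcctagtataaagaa

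The *Abcg5* and *Abcg8* windows overlap by 209 bases on opposite strands, with starts 110 bases apart, and neither holds any of the 5 motifs searched. This closeness follows in part from the choice of the *Abcg8* window. In *Abcc2* the antioxidant response element TGACNNNGC began at base -98 and the nuclear receptor motif AGGTCA at -49. In *Abcc4* the E-box CACGTG began at -205 and a reverse-strand antioxidant response element at -25. In *Abcg2* the nuclear receptor motif occurred as TGACCT at -212 and as AGGTCA at -121. Searched on both strands, TGACNNNGC was in 8 of the 58 windows of the 48 tested genes that have one, against 12.4% of all 32851 windows, and AGGTCA in 10 against 16.3%. CACGTG was in 6 of the 58 (7.15% of all windows), GTTAAT in 2 (7.10%) and the D-box TTATGTAA in 1 (0.938%). A match describes letters and says nothing of binding, and a window without one says only that these letters were not in it.

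Of the 6 genes for basolateral uptake, 1 rose and 1 fell with vehicle, and 1 rose and 2 fell with NSC. For the list counts here and below, 12.7% of all tested genes were called higher and 11.0% lower with vehicle. With NSC these shares were 18.2% and 16.5%. The lists are short, and none was tested as a set. *Slc22a7*, an organic anion transporter (ENSMUSG00000067144), was at 23.3, 17.1 and 16.3 CPM in the baseline specimens, 47.5, 64.7 and 56.7 CPM in vehicle-treated and 34.0, 38.4 and 31.3 CPM in NSC-treated remnants. The 3 groups did not overlap, with vehicle-treated remnants highest and baseline lowest. It rose by a log2 fold change 1.57, SE 0.18, adjusted p = 0.000151 with vehicle and by a log2 fold change 0.87, SE 0.17, adjusted p = 0.00286 with NSC (edgeR). *Slco2b1*, which takes up steroid conjugates and drugs, was at 186, 241 and 197 CPM at baseline, 117, 131 and 101 with vehicle and 88.3, 104 and 95.3 with NSC. All remnants lay below all baseline specimens, and the gene fell in both comparisons (log2 fold change -0.84, SE 0.16, adjusted p = 0.00333 with vehicle and -1.12, SE 0.16, adjusted p = 0.000455 with NSC, edgeR).

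The OATP genes *Slco1a1*, *Slco1a4* and *Slco1b2*, which lie together on chromosome 6 and take up bile acids, bilirubin and steroid conjugates, passed the test in neither comparison. *Slco1b2* was at 906, 747 and 679 CPM at baseline, 616, 513 and 710.1 with vehicle and 1182, 717 and 762 with NSC. The NSC libraries all lay above the vehicle libraries, the highest being NSC replicate 1, while baseline overlapped both. Its log2 fold changes were -0.34, SE 0.22, adjusted p = 0.289 with vehicle and 0.19, SE 0.22, adjusted p = 0.534 with NSC (edgeR), the latter turning to -0.35 with GC correction. *Slco1a1* was at 344, 266 and 225 CPM at baseline, 110.1, 139 and 274 with vehicle and 146, 202 and 200.1 with NSC. Vehicle replicate 3 was within the baseline range and the other vehicle libraries far below it. Without that library *Slco1a1* was called lower in vehicle-treated (-1.16, adjusted p = 0.0104) and in NSC-treated remnants (-0.61, adjusted p = 0.0419, edgeR), and with GC correction it was also called lower in both. *Slco1a4* was at 53.2 to 71.2 CPM at baseline, 35.3 to 56.8 with vehicle and 56.6 to 70.5 with NSC, so its groups overlapped. Reads of *Slco1a1* and *Slco1a4* may be shared between close paralogs, so their split is uncertain.

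**Figure D2:**
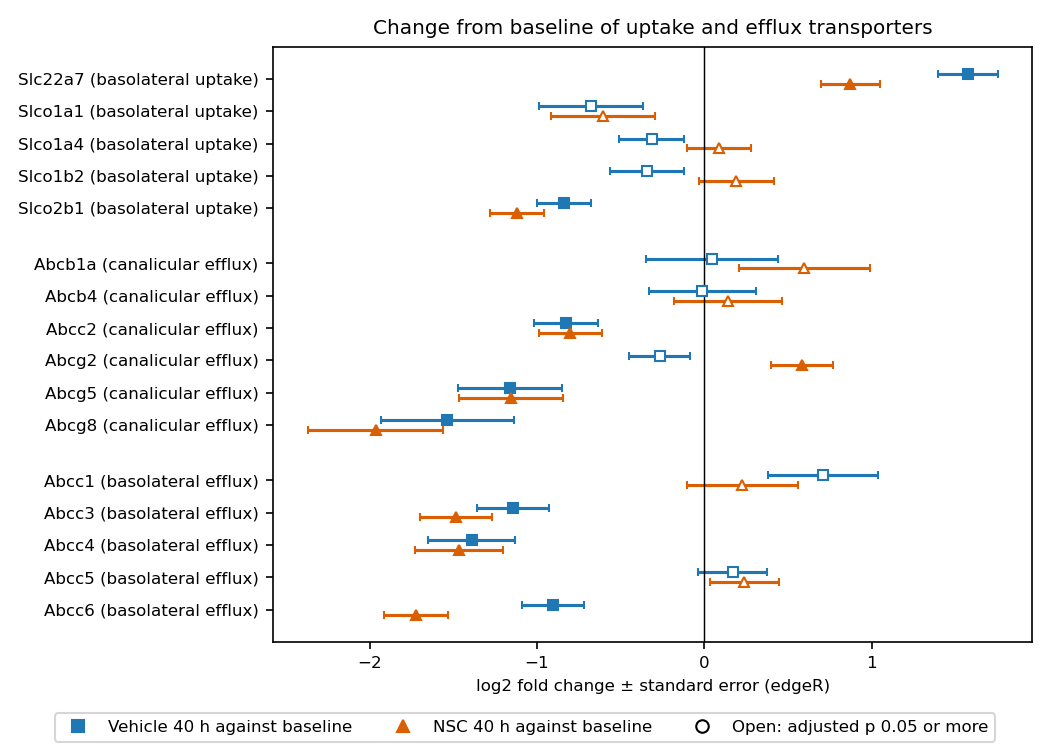
Log2 fold change from baseline with its standard error (edgeR) for 16 of the 17 uptake and efflux genes, squares for vehicle and triangles for NSC at 40 h, open where the adjusted p was 0.05 or more. *Slc22a7* lies to the right in both comparisons, and *Slco2b1*, *Abcc2*, *Abcg5*, *Abcg8*, *Abcc3*, *Abcc4* and *Abcc6* lie to the left in both.

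Of the 6 genes of the canalicular list, 3 fell with vehicle, and with NSC the same 3 fell and *Abcg2* rose. The list holds *Abcb1a* but not its paralog *Abcb1b*, which was called higher in both comparisons. *Abcc2* (chromosome 19, 43782192 to 43840740), the pump for bilirubin glucuronides and glutathione conjugates, was at 787, 643 and 670.4 CPM at baseline, 426, 462 and 296 with vehicle and 398, 434 and 375 with NSC. Remnants of both groups lay below every baseline specimen and overlapped each other. It fell with vehicle (log2 fold change -0.83, SE 0.19, adjusted p = 0.00861) and with NSC (-0.80, SE 0.19, adjusted p = 0.00691, edgeR).

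*Abcg5* (chromosome 17, 84658234 to 84683011) and *Abcg8* (84676302 to 84700333) encode the subunits of the heterodimer that secretes sterols into bile. *Abcg5* was at 57.7, 112 and 52.9 CPM at baseline, 41.1, 37.5 and 21.0 with vehicle and 33.3, 33.2 and 33.4 with NSC. *Abcg8* was at 67.8, 145 and 69.5 CPM, 38.1, 43.1 and 16.1 CPM and 23.1, 25.3 and 24.1 CPM in the same order. For both genes baseline replicate 2 was far above its group, vehicle replicate 3 was the lowest library, and the NSC libraries lay close together, all remnants being below all baseline specimens. *Abcg5* fell with vehicle (log2 fold change -1.16, SE 0.31, adjusted p = 0.0225) and with NSC (-1.16, SE 0.31, adjusted p = 0.0165), and *Abcg8* fell with vehicle (-1.54, SE 0.40, adjusted p = 0.0241) and with NSC (-1.96, SE 0.41, adjusted p = 0.00633, all edgeR). Without baseline replicate 2 the *Abcg5* values were -0.74 and -0.73, still called. The vehicle call of *Abcg5* was lost without vehicle replicate 3 (-0.92) and that of *Abcg8* without vehicle replicate 1 (-1.67), the NSC call of *Abcg5* was lost without NSC replicate 1, 2 or 3 (-1.16, -1.15 and -1.16), and both vehicle calls were also lost with only the 2 groups in the fit and with no expression filter. The gene bodies overlap on opposite strands, and the strand setting used for counting is not given in the sources used here, so reads in the overlap may be assigned to either gene.

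*Abcg2*, which encodes the breast cancer resistance protein, a pump for urate and sulfate conjugates, was at 80.1, 66.6 and 64.7 CPM at baseline, 56.9, 52.0 and 66.9 with vehicle and 81.2, 105 and 130.4 with NSC. The NSC libraries lay above all others, and vehicle overlapped baseline. It rose with NSC (log2 fold change 0.58, SE 0.18, adjusted p = 0.0272) and its vehicle difference did not pass (-0.27, SE 0.18, adjusted p = 0.315, edgeR). The *Abcg2* rise was lost with GC correction (0.08, adjusted p = 0.774, edgeR) and without baseline replicate 2 (0.54) or 3 (0.53) or NSC replicate 2 (0.59) or 3 (0.40). *Abcb4*, the phosphatidylcholine floppase of the canaliculus, and *Abcb1a*, a P-glycoprotein for xenobiotics, passed neither test. *Abcb4* ranged over 127 to 210 CPM at baseline, 121 to 246 with vehicle and 136 to 254 with NSC, so that replicates of 1 group differed more than the groups. *Abcb1a* was at 1.33 to 4.75 CPM over all libraries, and its close paralog *Abcb1b* is described with the remaining genes.

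**Figure D3:**
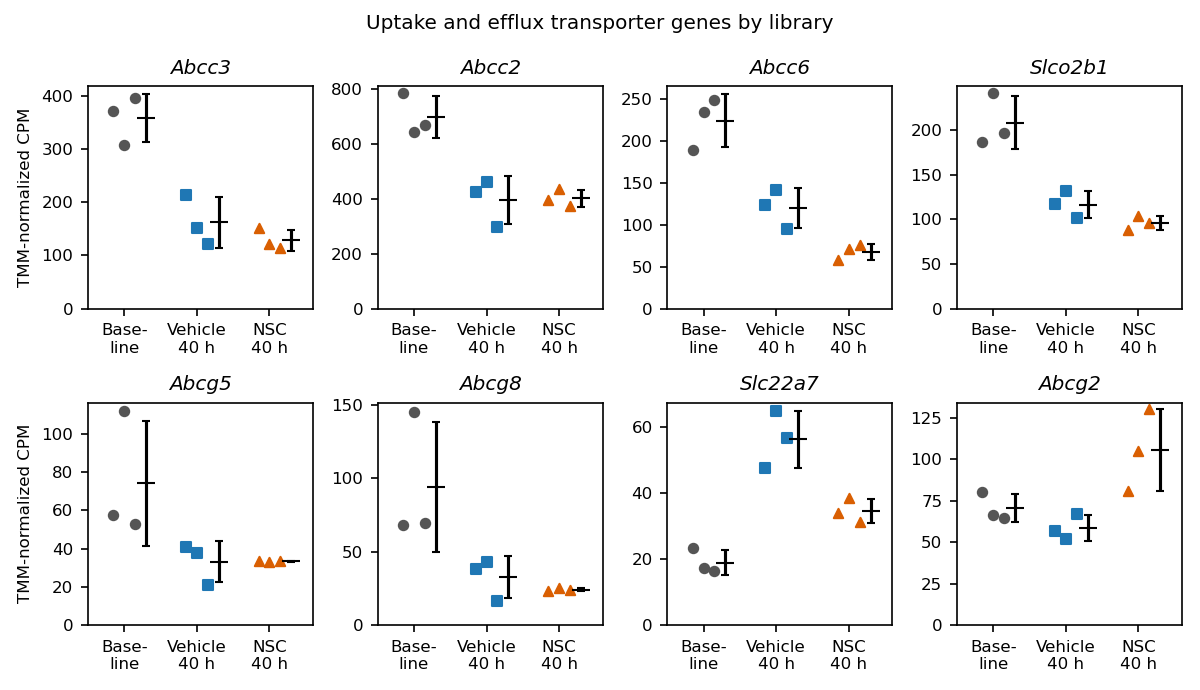
TMM-normalized CPM of 8 uptake and efflux genes, with a point per library and a bar for the mean and SD of each group of 3. The upper row and *Abcg5* and *Abcg8* show baseline above both remnant groups, *Slc22a7* shows 3 separate groups with vehicle highest, and *Abcg2* shows NSC highest.

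Of the 5 basolateral efflux genes, the same 3 fell with vehicle and with NSC. *Abcc3* (chromosome 11, 94343295 to 94392997), which exports glucuronides to blood, was at 372, 308 and 396 CPM at baseline, 214, 151 and 121 with vehicle and 151, 121 and 113 with NSC. Every remnant was below every baseline specimen, with the 40 h groups overlapping. It fell with vehicle (log2 fold change -1.14, SE 0.21, adjusted p = 0.00296) and with NSC (-1.48, SE 0.22, adjusted p = 0.000481, edgeR). *Abcc4*, an exporter of bile acids and cyclic nucleotides, was much lower in counts: 5.12, 5.16 and 6.14 CPM at baseline, 1.85, 2.62 and 1.77 with vehicle and 2.49, 1.70 and 1.72 with NSC. The 40 h groups overlapped below baseline, and *Abcc4* fell in both (log2 fold change -1.39, SE 0.26, adjusted p = 0.00292 with vehicle and -1.47, SE 0.26, adjusted p = 0.00152 with NSC, edgeR).

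*Abcc6*, through which hepatocytes release ATP, was at 189, 235 and 249 CPM at baseline, 123, 142 and 94.8 with vehicle and 57.4, 70.4 and 76.0 with NSC. The groups descended in that order without overlap. It fell with vehicle (log2 fold change -0.90, SE 0.19, adjusted p = 0.00491) and with NSC (-1.72, SE 0.19, adjusted p = 9.61e-05, edgeR). The other members of this list did not pass: *Abcc1*, a leukotriene and glutathione conjugate pump, had log2 fold changes of 0.71, SE 0.33, adjusted p = 0.138 with vehicle and 0.23, SE 0.33, adjusted p = 0.626 with NSC, and *Abcc5*, a cyclic nucleotide pump, of 0.17, SE 0.21, adjusted p = 0.593 and 0.24, SE 0.21, adjusted p = 0.394 (edgeR). Both were below 10 CPM in every library.

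The peroxisomal and lysosomal ABCD genes were called lower in 3 of 4 cases with vehicle and in 2 of 4 with NSC. *Abcd3*, which imports branched chain fatty acids and bile acid precursors, was at 566, 474 and 452 CPM at baseline, 281, 238 and 292 with vehicle and 430.2, 352 and 373 with NSC. The NSC libraries lay between the other groups without overlap. *Abcd3* fell with vehicle (log2 fold change -0.88, SE 0.17, adjusted p = 0.00298), and its NSC difference did not pass (-0.37, SE 0.16, adjusted p = 0.101, edgeR), although with GC correction it was called lower (-0.67, adjusted p = 0.00539).

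*Abcd4*, of the lysosomal cobalamin export pathway, fell with vehicle (log2 fold change -0.81, SE 0.22, adjusted p = 0.0202) and with NSC (-1.15, SE 0.23, adjusted p = 0.00249, edgeR). It was at 15.9, 29.5 and 17.6 CPM at baseline, 11.1, 13.8 and 10.8 with vehicle and 9.69, 8.52 and 10.1 with NSC, with baseline replicate 2 the highest library. The vehicle call for *Abcd4* was lost without that library (-0.49), vehicle replicate 1 (-0.77) or vehicle replicate 3 (-0.75). *Abcd2*, a peroxisomal fatty acid importer singled out here after its values were seen, passed no test and showed the widest replicate spread of the group: 9.98, 17.2 and 12.9 CPM at baseline, 37.2, 18.0 and 17.2 with vehicle and 60.9, 13.9 and 15.0 with NSC. NSC replicate 1 lay far above every other library.

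Among the 5 mitochondrial and intracellular ABCB genes, 1 fell with vehicle, and with NSC 1 rose and 2 fell. *Abcb10*, a mitochondrial transporter tied to haem synthesis, was at 54.6, 42.3 and 56.1 CPM at baseline, 21.9, 27.9 and 25.6 with vehicle and 23.9, 31.2 and 32.5 with NSC. It fell in both (log2 fold change -1.02, SE 0.17, adjusted p = 0.00150 and -0.80, SE 0.17, adjusted p = 0.00365, edgeR), and neither remnant group reached the baseline range.

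Of the 4 ABCE and ABCF genes, 1 rose with vehicle, and with NSC 1 rose and 2 fell. *Abce1*, a ribosome recycling factor, was at 62.4, 56.2 and 54.6 CPM at baseline, 83.5, 71.3 and 104 with vehicle and 109, 114 and 107 with NSC. The groups ascended in that order without overlap, and *Abce1* rose with vehicle (log2 fold change 0.58, SE 0.15, adjusted p = 0.0180) and with NSC (0.93, SE 0.15, adjusted p = 0.00100, edgeR). Its vehicle call was lost without baseline replicate 2 (0.56) or 3 (0.54) or vehicle replicate 3 (0.42), and its NSC value was 0.45 with GC correction, still called. *Abcf1* and *Abcf3*, which act in translation, were called lower with NSC (adjusted p = 0.0396 and 0.0108, edgeR), at 49.5, 53.6 and 47.2 CPM and 42.1, 46.7 and 45.2 CPM against 61.4, 73.8 and 68.2 CPM and 60.0, 60.5 and 64.6 CPM at baseline, and neither passed with vehicle. With GC correction neither *Abcf1* (adjusted p = 0.397) nor *Abcf3* (adjusted p = 0.0707, edgeR) passed with NSC. The *Abcf1* call was also lost by library size only (-0.30), with no expression filter (-0.44), without baseline replicate 2 (-0.37) or 3 (-0.43), without NSC replicate 1, 2 or 3 (-0.43, -0.49 and -0.40) and without vehicle replicate 2 (-0.44). That of *Abcf3* was also lost by library size only (-0.33) and without baseline replicate 3 (-0.43).

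**Figure D4:**
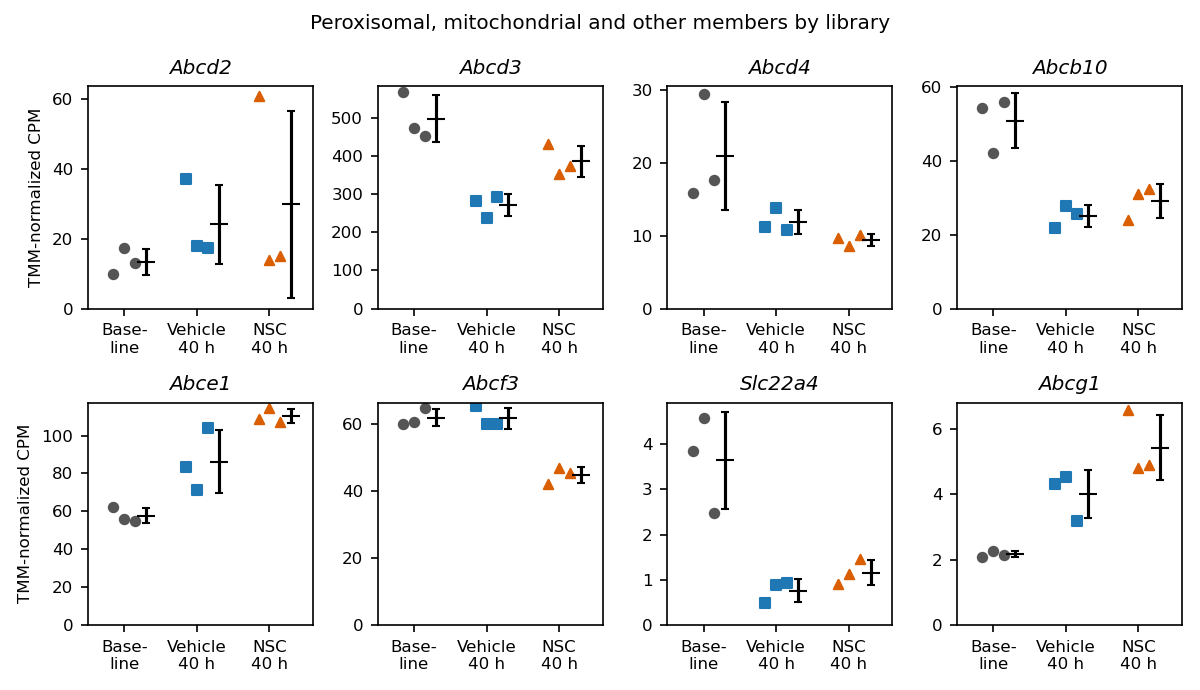
TMM-normalized CPM by library of 8 peroxisomal, lysosomal, mitochondrial, translation, ergothioneine and cholesterol members, with the mean and SD of each group of 3. *Abcd4*, *Abcb10* and *Slc22a4* are highest at baseline, *Abce1* and *Abcg1* are highest with NSC, *Abcd3* with NSC lies between the other groups, and *Abcd2* shows 1 NSC library far above the rest.

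In the carnitine, ergothioneine and cation list, 2 of 5 tested genes fell in each comparison. *Slc22a4*, the ergothioneine transporter, was at 3.85, 4.58 and 2.48 CPM at baseline, 0.476, 0.881 and 0.923 with vehicle and 0.900, 1.12 and 1.45 with NSC. All remnants lay below baseline, and it fell with vehicle (log2 fold change -2.27, SE 0.36, adjusted p = 0.00113) and with NSC (-1.66, SE 0.35, adjusted p = 0.00372, edgeR). *Slc22a15* fell as well (-1.10, adjusted p = 0.00545 with vehicle and -1.21, adjusted p = 0.00232 with NSC, edgeR). *Slc22a3*, *Slc22a5* (the carnitine transporter) and *Slc22a21* passed neither test.

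Of the 11 tested genes in the list named cholesterol and phospholipid ABCA and ABCG, 1 rose and 2 fell with vehicle, and 2 rose and 3 fell with NSC. *Abcg1*, which moves cholesterol to lipoproteins and is abundant in macrophages, was at 2.09, 2.26 and 2.15 CPM at baseline, 4.30, 4.54 and 3.17 with vehicle and 6.57, 4.79 and 4.89 with NSC. Its groups ascended without overlap (log2 fold change 0.89, SE 0.24, adjusted p = 0.0182 with vehicle and 1.32, SE 0.24, adjusted p = 0.00160 with NSC, edgeR). The sum of the macrophage list overlapped baseline with vehicle and lay above it with NSC, and its relation to *Abcg1* was not tested. The vehicle call for *Abcg1* was lost without baseline replicate 1 (0.86) or 3 (0.89) or vehicle replicate 1 (0.84) or 2 (0.79). *Abcg3*, a rodent relative of *Abcg2*, was at 1.71, 1.16 and 1.55 CPM at baseline, 2.28, 2.13 and 1.66 with vehicle and 6.33, 2.85 and 2.62 with NSC. NSC replicate 1 was far above the others, and the rise of *Abcg3* with NSC (log2 fold change 1.42, SE 0.36, adjusted p = 0.00934, edgeR) was 0.89 without that library, still called, and just missed the threshold with GC correction (1.01, adjusted p = 0.0512).

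*Abca8a*, one of a cluster of related ABCA genes on chromosome 11, was at 107, 60.2 and 76.2 CPM at baseline, 55.5, 40.6 and 47.2 with vehicle and 37.6, 36.7 and 37.4 with NSC. It fell with vehicle (log2 fold change -0.76, SE 0.20, adjusted p = 0.0148) and with NSC (-1.12, SE 0.20, adjusted p = 0.00137, edgeR), the vehicle call being lost without baseline replicate 1 (-0.51) or vehicle replicate 2 (-0.66) or 3 (-0.75). Its neighbour *Abca8b*, with which reads may be shared, passed neither test. *Abca7*, a phospholipid transporter, fell with NSC (log2 fold change -1.28, SE 0.27, adjusted p = 0.00372, edgeR), from 11.6, 8.95 and 14.0 CPM to 6.0, 4.25 and 3.95 CPM, and its value with GC correction was -0.77, still called. *Abca1*, the cholesterol and phospholipid pump that loads apolipoprotein A-I, passed neither test at 0.22 with vehicle and 0.08 with NSC.

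Among the 16 remaining tested genes, 3 rose and 3 fell with vehicle, and 2 rose and 3 fell with NSC. These were 18.8% and 18.8% with vehicle, where 12.7% and 11.0% of all tested genes were called. With NSC they were 12.5% and 18.8%, against 18.2% and 16.5% of all tested genes. *Abcb1b*, the other liver P-glycoprotein gene, was at 1.30, 1.56 and 1.91 CPM at baseline, 3.68, 3.08 and 4.13 with vehicle and 3.12, 4.11 and 2.97 with NSC. Both remnant groups lay above baseline and overlapped, and *Abcb1b* rose with vehicle (log2 fold change 1.19, SE 0.26, adjusted p = 0.00682) and with NSC (1.10, SE 0.26, adjusted p = 0.00715, edgeR). *Abcc10*, a broad organic anion pump, was at 15.5, 20 and 19.1 CPM at baseline, 13.0, 10.7 and 7.83 with vehicle and 7.38, 5.06 and 4.97 with NSC. These groups descended without overlap, with *Abcc10* lower in both (log2 fold change -0.79, SE 0.22, adjusted p = 0.0211 with vehicle and -1.65, SE 0.23, adjusted p = 0.000330 with NSC, edgeR). The vehicle call for *Abcc10* was lost without baseline replicate 2 (-0.72) or 3 (-0.75) or vehicle replicate 2 (-0.81) or 3 (-0.62).

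*Slco3a1* rose in both comparisons (0.91, adjusted p = 0.0111 with vehicle and 0.73, adjusted p = 0.0232 with NSC, edgeR), from 2.69, 2.93 and 2.34 CPM to 5.61, 4.61 and 4.73 CPM and 3.75, 4.58 and 4.89 CPM. The *Slco3a1* calls were lost without baseline replicate 3 in both (0.83 and 0.65), without vehicle replicate 1 in the first (0.81), and without baseline replicate 1 (0.74) or NSC replicate 2 (0.70) or 3 (0.65) in the second. *Abcc9*, the sulfonylurea receptor subunit of potassium channels found in vessel wall cells, rose with vehicle (log2 fold change 0.65, SE 0.21, adjusted p = 0.0444, edgeR), at 19.8, 23.5 and 18.5 CPM at baseline and 30.7, 37.1 and 29.2 CPM in remnants. That call was lost without baseline replicate 1 (0.62) or 3 (0.58), vehicle replicate 1 (0.69), 2 (0.54) or 3 (0.72), or NSC replicate 2 (0.65), and with GC correction (0.61). The stellate cell and fibroblast list was also higher with vehicle, and its part in the *Abcc9* value was not tested.

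*Slc22a30*, of an SLC22 cluster on chromosome 19 whose members *Slc22a26* to *Slc22a30* may share reads, was at 189, 96.6 and 159 CPM at baseline, 73.3, 62.7 and 94.9 with vehicle and 85.6, 105 and 114 with NSC. It fell with vehicle (log2 fold change -0.95, SE 0.24, adjusted p = 0.0149, edgeR), a call lost without baseline replicate 1 (-0.73) or 3 (-0.89) or vehicle replicate 1 (-0.91) or 2 (-0.82). *Slco4a1*, named here after its values were seen because it was at or near the floor, had 0.348, 0.458 and 0.528 CPM at baseline and 0.0600, 0 and 0.0783 CPM with NSC, and no fold change is given for it.

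Between NSC- and vehicle-treated remnants, the question being whether the inhibitor altered transporter expression during regeneration, no transporter gene was called by edgeR (0 higher and 0 lower of 62), as for 0% higher and 0.0399% lower of all tested genes. At an unadjusted p under 0.05, 6 were higher and 7 lower, where the shares of all tested genes were 9.30% and 10.2%. The groups did not overlap for 8 genes that were higher and 10 that were lower with NSC, where such separation held for 10.3% and 12.2% of all tested genes. For the alternatives that follow, the shares of all tested genes called are not given here, so their counts cannot be set against the shares above. DESeq2 called 2 higher (*Abcd3* and *Abcg2*) and 4 lower (*Abcc10*, *Abcc6*, *Abcf3* and *Slc22a7*). Without NSC replicate 1, edgeR called *Abcg2* higher and *Abcc10*, *Abcc6* and *Slc22a26* lower, without vehicle replicate 3 it called *Abcc6* lower, and with no expression filter it called *Abcg2* higher and *Abcc6* and *Slc22a7* lower.

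Among the genes with the smallest unadjusted p that were higher with NSC were *Abcg2* (log2 fold change 0.85, SE 0.18, adjusted p = 0.0850), *Abcd3* (0.51, SE 0.16, adjusted p = 0.140), *Abcg3* (0.96, SE 0.35, adjusted p = 0.173) and *Slco1b2* (0.53, SE 0.22, adjusted p = 0.220, all edgeR). In each of these the NSC libraries lay above all vehicle libraries. Without NSC replicate 1 the *Abcg3* value was 0.43, that of *Slco1b2* 0.27 and that of *Abcg2* 1.01. Those lower with NSC were *Abcc6* (-0.82, SE 0.19, adjusted p = 0.0850), *Slc22a7* (-0.70, SE 0.17, adjusted p = 0.0907), *Abcf3* (-0.46, SE 0.12, adjusted p = 0.0971), *Abcc10* (-0.85, SE 0.22, adjusted p = 0.0981) and *Abcf1* (-0.49, SE 0.15, adjusted p = 0.129, all edgeR). For each, every NSC library lay below every vehicle library. For *Abcc6* the NSC value went further from baseline than the vehicle value. For *Slc22a7* and *Abcd3* the NSC libraries lay between baseline and vehicle, and for *Slco1b2* baseline overlapped both 40 h groups. The sterol pump genes *Abcg5* (0.00399, SE 0.31, adjusted p = 0.997) and *Abcg8* (-0.43, SE 0.39, adjusted p = 0.578), *Abcc2* (0.03, SE 0.19, adjusted p = 0.953) and *Abcc4* (-0.08, SE 0.26, adjusted p = 0.896, all edgeR) had differences smaller than their standard errors or close to them, an imprecise result that does not show equal levels.

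GC content moved with the direct comparison. Over the 62 genes, the Spearman correlation of the log2 fold change of NSC against vehicle with the GC content of the longest transcript was -0.67, and over 14900 genes it was -0.56. It was -0.45 (all genes -0.41) for NSC against baseline and -0.16 (all genes -0.13) for vehicle against baseline. These points share libraries and base composition and are not independent, so the values are descriptions. *Abcg2* and *Slco1b2* are at 39.2 and 38.6% GC, and *Abcc6*, *Slc22a7* and *Abcc10* at 59.0, 56.7 and 57.5%. After correction for GC content within each library, the correlation over the 62 genes was -0.28 and the log2 fold changes of NSC against vehicle were 0.48 for *Abcg2*, 0.13 for *Slco1b2*, -0.46 for *Abcc6*, -0.41 for *Slc22a7* and -0.51 for *Abcc10*. Each kept its direction and was smaller in size, and the source of the relation with GC content was not tested.

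**Figure D5:**
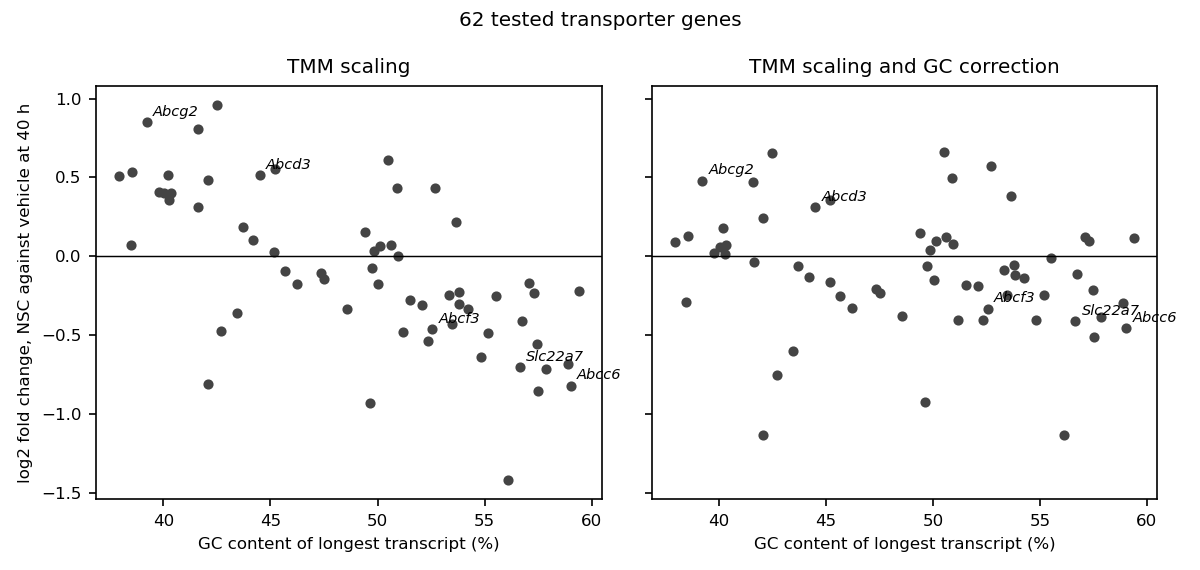
Log2 fold change of NSC against vehicle at 40 h against the GC content of the longest transcript (%), 1 point for each of the 62 tested genes, before (left) and after (right) correction for GC content. The downward slope on the left (Spearman correlation -0.67) is shallower on the right (-0.28).

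Beside the transporters chosen by name, 2 lists of related genes were counted. Of 9 other hepatic transporters, among them *Abcb11* and *Slc10a1*, 7 were tested, 0 were higher and 2 lower with vehicle, and 1 was higher and 4 lower with NSC. Of 13 regulators, among them *Nr1i2*, *Nr1i3*, *Nr1h4*, *Hnf4a* and *Ppara*, 0 were higher and 4 lower with vehicle, and 1 was higher and 6 lower with NSC. Over all tested genes, 12.7% were called higher and 11.0% lower with vehicle, and 18.2% and 16.5% with NSC. In the direct comparison no gene of either list was called by edgeR. The lists' medians were -0.27 and -0.28 with vehicle and -0.73 and -0.70 with NSC, against 0.01 for all tested genes in both comparisons.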

How the data were processed

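Whole liver was profiled by strand-specific polyadenylated RNA-Seq in 9 libraries of 3 groups. The authors aligned reads with STAR 2.6.1 in MAP-RSeq, assigned them to genes with featureCounts of Subread 1.5.1, and deposited raw counts per gene and library without pooling replicates. The deposited FPKM values scale those counts to gene length and total depth (largest relative difference on recomputing 4.96e-10). The sources name a human build, but the genes carry mouse identifiers: all 88 members have one in GENCODE M21 (GRCm38), 62 at the same position.

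Counts were filtered (filterByExpr), scaled by TMM factors and tested in 1 quasi-likelihood fit over 9 libraries with edgeR 4.0.16 in R 4.3.3, with limma 3.58.1 and, as an alternative, DESeq2 1.42.0. Each comparison was adjusted over 15024 genes by the Benjamini-Hochberg method (threshold 0.05). Standard errors are the log2 fold change divided by the square root of F. Plots used Python 3.11.15, pandas 2.3.3 and matplotlib 3.10.9. The procedure was tested on simulated data with 200 changed genes. GC content, known for 99.2% of tested genes, is that of the longest transcript, and its correction was a loess curve of span 0.5 per library. Other alternatives were RLE factors, library size only, no filter, a replicate number block, a floor of 10 counts per library, fits of just the groups in question, stricter thresholds and leaving out each library.

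The genes named, apart from a few that are not reported here, are all tested members of the uptake and efflux lists, up to 8 further called members per direction by adjusted p in each comparison with baseline, and in the direct comparison the 5 smallest unadjusted p per direction. Members, lists and promoter motifs were chosen with earlier results of these data known. No source ties same-numbered libraries to 1 animal, and the numbers were not treated as pairs. Depth was 23997363 to 42887589 counts per library, and the floor of 3 counts covers counting error only. Close paralogs (*Slco1a1* and *Slco1a4*, *Abcb1a* and *Abcb1b*, *Abca8a* and *Abca8b*, *Slc22a26* to *Slc22a30*) may share reads.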

Additional observations from a re-analysis of the deposited data

Results flagged for a closer look

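A gene outside the naming rule had counts that entered none of the transporter results above. *Slc22a13b-ps*, listed as a polymorphic pseudogene and so not among the protein-coding transporters, had 4 to 13 counts in each of the 9 libraries, above the 3 counts that a count of 0 allows. It was present in all 3 groups, at 5 to 12 counts at baseline, 7 to 13 with vehicle and 4 to 9 with NSC. No test result for it is given here.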

How the results depend on the processing

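Of 84 log2 fold changes of named genes under the alternatives, which gave 1596 values, 1441 kept their direction and their side of the threshold, 103 lost a call, 17 gained one and 35 reversed. The reversed values all belong to 12 of the 39 that were not called, and none of the 45 called values reversed.

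Requiring also a log2 fold change over 1.5 in size left 1 transporter gene higher and 3 lower with vehicle and 0 higher and 5 lower with NSC. An adjusted p under 0.01 left 2 higher and 10 lower with vehicle and 14 lower with NSC. GC correction gave 5 higher with NSC. The NSC median of the 62 genes was -0.33 by library size only and -0.31 with GC correction. In the direct comparison DESeq2 called 2 higher and 4 lower, no filter gave 1 and 2, and the median was -0.026 by library size only. Leaving out 1 library gave 2 to 7 higher and 13 to 19 lower with vehicle, 6 to 8 higher and 15 to 25 lower with NSC, and 0 to 1 higher and 0 to 3 lower in the direct comparison, whose median ran from -0.20 to -0.063. Without baseline replicate 3, 2 were higher with vehicle, and without vehicle replicate 1, 3. The causes were not tested, apart from the stricter thresholds, which by construction call fewer genes. Shares of all tested genes called under these alternatives are not given here.

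Deviations from group means correlated weakly between same-numbered libraries (Pearson correlations -0.0479 to 0.134, not all over 0.1). Still, 8 of the 9 libraries correlated best with one of their own number, a hint from the data and not from the design. The correlation of 0.134 was between vehicle and NSC remnants. Mice received either vehicle or NSC, so a number shared between those treatments cannot mean a shared animal. With the replicate block, 6 were higher and 18 lower with vehicle, 8 and 24 with NSC, and 0 and 0 in the direct comparison; *Abcb1a* with vehicle reversed to -0.0020. Other reversals with vehicle were *Abcb1a* at -0.022 with GC correction and -0.44 to 0.40 leaving out 1 library, and *Abcb4* at 0.032 by library size only, 8.99e-05 with at least 10 counts, 0.015 with GC correction and -0.41 to 0.19 leaving out 1 library. With NSC, GC correction gave -0.38 for *Slco1a4* and -0.35 for *Slco1b2*, and leaving out 1 library gave -0.16 to 0.34 for *Abcb4*, -0.072 to 0.40 for *Abcc1*, -0.0020 to 0.21 for *Slco1a4* and -0.071 to 0.32 for *Slco1b2*. In the direct comparison, GC correction gave -0.17 for *Abcc2* and -0.29 for *Slco1a1*, library size only gave 0.067 for *Abcc4*, and leaving out 1 library gave -0.15 to 0.55 for *Abcb4*, -0.14 to 0.16 for *Abcc2*, -0.29 to 0.12 for *Abcc4*, -0.16 to 0.21 for *Abcc5*, -0.24 to 0.19 for *Abcg5* and -0.18 to 0.55 for *Slco1a1*.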
